A study of Mus musculus with 80 samples.

Results

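The genes described here encode the machinery that docks, primes and fuses synaptic vesicles. They were chosen by name: all listed synaptotagmins (Syt), syntaxins (Stx), syntaxin-binding proteins (Stxbp), Vamp and Snap proteins, synapsins (Syn), synaptogyrins (Syngr), Syp, Sv2, Rab3, Rims, Unc13 and complexin (Cplx) genes. This rule, which used no measured value, found 71 of the 25160 listed genes. Levels were compared across 80 single cells sorted from the dorsomedial striatum of adult mice. All cells came from double-transgenic mice that were heterozygous for both reporters, Drd1a-TdTomato and Drd2-EGFP. Of these, 40 cells were labelled Drd1 (D1 cells) and 40 were labelled Drd2. The reporters are bacterial artificial chromosome transgenes, each driven by the regulatory DNA of its receptor gene, so the sort selected reporter fluorescence and not the receptor protein. Among the Drd2-labelled cells, 2 listed Chat, the acetylcholine-synthesising enzyme, above 100 TPM (a transcript level corrected for gene length and sequencing yield) and are described separately as cholinergic interneurons. The other 38 are called D2 MSN, for medium spiny neurons. Cells came from several animals and experiments, which the labels do not tie to the 3 plates, and mice without the transgenes were not among the samples.

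Vesicle release rests on SNARE proteins. Vamp on the vesicle zippers together with a syntaxin and Snap25 on the plasma membrane, Unc13 (Munc13) proteins prepare this assembly, Rims and Rab3 place the vesicle at the active zone, complexins hold the assembled complex, and synaptotagmins couple it to calcium. MSN are the GABA-releasing projection neurons of the striatum: D1 MSN form the direct pathway, D2 MSN the indirect pathway. Many syntaxins, Vamps and synaptotagmins act elsewhere in the cell, in the Golgi, endosomes and lysosomes, and these were members by name as well.

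Levels are TPM as deposited, which scale by gene length. The paper reports that its reads gather at the downstream end of transcripts, a bias it describes for low-input methods and long transcripts. Levels of different genes are therefore compared with that limit. The depth behind each cell is not known from TPM. A gene was counted as found in a cell above 1 TPM, and a value of 0 means only that the gene was listed at 0. Cells are not replicates and each group counts as 1 sample, so no test was made, and each difference is given beside the spread over cells (SD). Intervals on shares of cells are 95% Clopper-Pearson intervals and cover counting error only. Exons of Rab3a, Rab3b, Snap47, Stx18, Sv2b, Syn1, Syn2, Syp, Syt4, Syt6, Syt7 and Unc13a overlap another gene on the opposite strand, and the library kit does not mark strand, so reads in these overlaps cannot be told apart.

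The MSN markers were all listed, and their summed level had a median of 3691 TPM in D1 cells and 4231 TPM in D2 MSN. Drd1 had a mean of 195 TPM in D1 cells and 0.46 TPM in D2 MSN, whereas Gpr6, a receptor of the indirect pathway, had means of 0.14 and 202 TPM. The summed markers of cholinergic interneurons reached at most 14.7 TPM in any of the 78 MSN. In 4 libraries the marker sums went against the label. The D1 cell in well D04 of plate FACS051_5 listed the astrocyte markers at a sum of 3678 TPM, against at most 225 TPM in the other 77 MSN, and its Drd1 level was 2.03 TPM. Its Snap25 level was 3.49 TPM and its Syt1 and Cplx2 levels were 0. The D1 cell in well B02 of plate FACS086_4, with 6 members found, listed MSN markers at a sum of only 4.80 TPM and Drd1 at 0. The D1 cell in C06 of plate FACS051_5 listed the D2 MSN markers (3713 TPM) above the D1 MSN markers (1378 TPM). That sum was almost all Penk (3676 TPM), and the cell listed Drd1 at 297 TPM, so only this 1 marker set it apart. The D2 MSN in A12 of plate FACS086_9 listed the D1 MSN markers (1218 TPM) above the D2 MSN markers (527 TPM). That cell listed Drd1 at 0 and Penk, a D2 MSN marker, at 196 TPM (median over D2 MSN 10688 TPM). Of the 78 MSN, 3 had fewer than 2000 genes above 1 TPM, among them the cells in B02 of plate FACS086_4 and A12 of plate FACS086_9.

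Members were far from uniform in level, and 47 of 71 had a mean of at least 10 TPM, beside 7642 of all 25160 listed genes. Over the 78 MSN, 9 members had a mean of at least 100 TPM, 38 lay between 10 and 100 TPM, 19 between 1 and 10 TPM, and 5 under 1 TPM. The 9 were Snap25, Rab3a, Syt1, Syt5, Syt11, Vamp2, Snap47, Syt4 and Syp. The lowest were Vamp8, Cplx3, Syt15, Rab3d and Syt13. The order of the 71 means was alike in both populations, with a Spearman coefficient of 0.91 across genes, which share libraries and are not independent. A total of 33 members were found in at least 50% of the 78 MSN, beside 3448 of all 25160 listed genes. Of the 47 members with a mean of at least 10 TPM, 68.1% were found in that many MSN, compared with 41.4% of all 7642 genes at that level.

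The number of members found per cell followed the number of all genes found. D1 cells held 6 to 52 members above 1 TPM (median 36) and D2 MSN held 9 to 46 (median 30.5). The same cells had medians of 5722 and 4927.5 listed genes above 1 TPM. Pearson's r between both counts was 0.93 over the 40 D1 cells and 0.94 over the 38 D2 MSN, as a description of counts taken from the same libraries. Both counts differed by plate. On plate FACS051_5 the median number of members was 35.5 in D1 cells and 38 in D2 MSN, whereas on plate FACS086_4 it was 36 and 27. The order of the 2 populations was therefore opposite on the 2 large plates. The median number of listed genes found had the same order, at 5109 and 5923 on plate FACS051_5 and 5730 and 4617 on plate FACS086_4. As a share of all listed TPM, members took a median of 0.521% in D1 cells and 0.530% in D2 MSN.

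**Figure D1:**
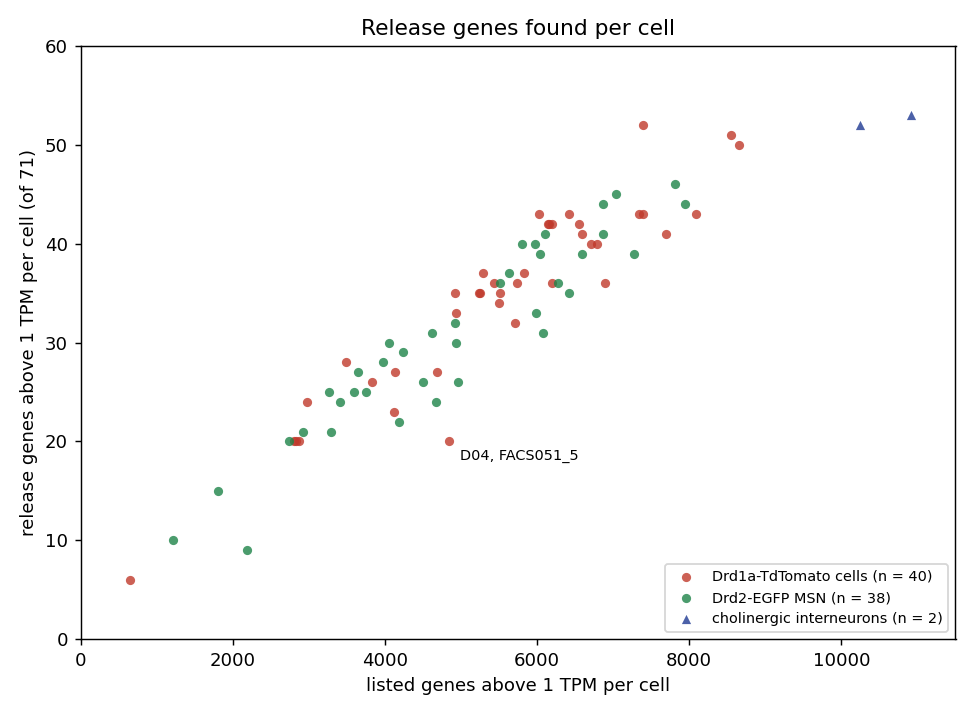
Number of release genes above 1 TPM (y axis, of 71) against the number of all listed genes above 1 TPM (x axis) in each cell, with 40 Drd1a-TdTomato cells, 38 Drd2-EGFP MSN and 2 cholinergic interneurons as points. Both counts move together, from 6 members in the cell with 648 genes to 53 members in the interneuron with 10912 genes, and the cell in well D04, with 20 members, lies below the other cells of its gene number.

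Among the SNAREs of fast release, Snap25 (GRCm38 chromosome 2, 136713453 to 136782428) was the most abundant member. It ranged from 1.38 to 2792 TPM in D1 cells (median 1224, mean 1203 ± 780, SD over 40 cells) and from 0.86 to 3129 TPM in D2 MSN (median 1226, mean 1216 ± 810, SD over 38 cells). The 2 populations overlapped over nearly their whole range, and the log2 ratio of the means was -0.02. Snap25 was found in 40 of 40 D1 cells and 37 of 38 D2 MSN. The exception, in well A11 of plate FACS051_5, had only 9 members above 1 TPM.

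Vamp2, the main synaptic Vamp, ranged from 0.19 to 446 TPM in D1 cells (median 103) and from 3.04 to 794 TPM in D2 MSN (median 171). Its means were 152 ± 119 and 186 ± 157 TPM. The log2 ratio was -0.29 over all cells, -0.40 on plate FACS051_5 and -0.34 on plate FACS086_4, so D2 MSN had the higher mean on both, by less than 1 SD over cells. Vamp1, its close relative, had a mean of only 7.21 TPM in D1 cells and 4.57 TPM in D2 MSN.

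Stx1a, a syntaxin of the plasma membrane, was listed at 0 in 27 of 40 D1 cells and in 32 of 38 D2 MSN. It was found in 11 D1 cells (27.5%, interval 14.6% to 43.9%) and 3 D2 MSN (7.89%, interval 1.66% to 21.4%). The shares were close on plate FACS051_5, at 4 of 18 D1 cells and 3 of 16 D2 MSN. On plate FACS086_4 they were 6 of 21 and 0 of 19. Its median was 0 in both populations. Snap47, a relative of Snap25, was the second Snap protein by level, with means of 140 ± 150 and 169 ± 202 TPM.

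**Figure D2:**
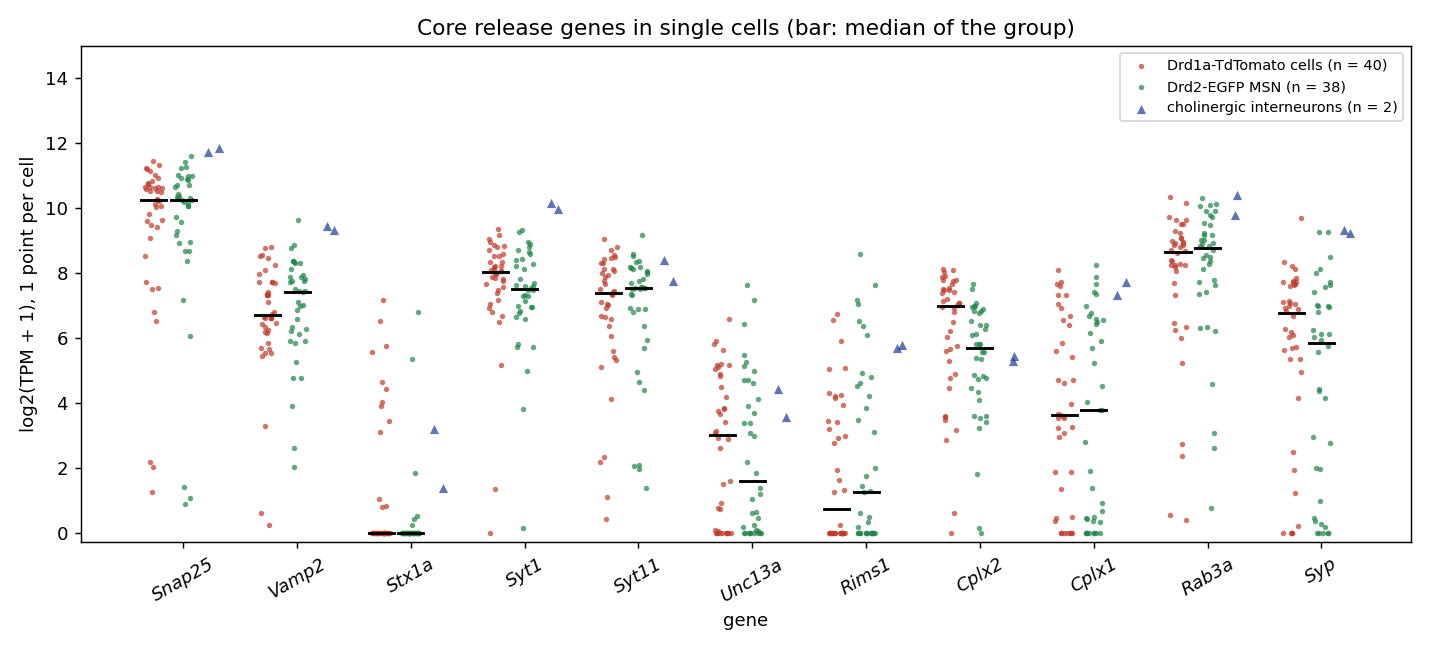
Levels of 11 core release genes as log2(TPM + 1) (y axis), with 1 point per cell for 40 Drd1a-TdTomato cells, 38 Drd2-EGFP MSN and 2 cholinergic interneurons; black bars are the medians of the MSN groups. The Snap25 medians, 1224 and 1226 TPM, lie at the same height, the Cplx2 median is higher in Drd1a-TdTomato cells (126 against 50.9 TPM), and both Stx1a medians are 0.

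Several synaptotagmins were abundant. Syt1, the sensor of fast synchronous release, ranged from 0 to 650 TPM in D1 cells (median 259) and from 0.09 to 638 TPM in D2 MSN (median 183). Its means were 272 ± 153 and 227 ± 164 TPM, a log2 ratio of 0.26. The ratio was 0.47 on plate FACS051_5 and -0.12 on plate FACS086_4, so the direction depended on the plate. The only D1 cell listed at 0 was the cell in D04.

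Syt5 had almost equal means, 207 ± 297 and 209 ± 214 TPM, but its highest D1 cell, B07 of plate FACS051_5, listed 1633 TPM while the next listed 619 TPM. Without that cell the log2 ratio moved from -0.01 to -0.29. Syt11 and Syt4, which bind calcium weakly or not at all, were also widespread: Syt11 was found in 39 D1 cells and 38 D2 MSN, Syt1 in 39 and 37, and Syt4 in 35 and 32. Every MSN with Syt4 above 1 TPM also had Syt1 above 1 TPM (67 cells), 9 had Syt1 only, and 2 had neither. Syt1 was found in 76 of 78 MSN, so most of this overlap follows from its share alone.

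The other synaptotagmins were patchy. Of the 16 listed, 9 had a mean of at least 10 TPM. With all plates pooled, 14 were found in a larger share of D1 cells than of D2 MSN. On plate FACS051_5 only Syt3, Syt5, Syt7, Syt9 and Syt12 had the larger share in D1 cells. Syt3 had means of 21.4 ± 56.3 and 11.7 ± 28.7 TPM, with log2 ratios of 1.33 and -0.22 on plates FACS051_5 and FACS086_4. Over all cells its ratio was 0.82, and 0.26 without the 4 libraries whose markers went against the label. Syt7, the slow high-affinity sensor, was named after its values were seen: it was found in 23 D1 cells (57.5%, interval 40.9% to 73.0%) and 9 D2 MSN (23.7%, interval 11.4% to 40.2%). Its means were 14.9 and 3.67 TPM. On plate FACS051_5 11 of 18 D1 cells and 5 of 16 D2 MSN had it, and on plate FACS086_4 12 of 21 and 4 of 19, so the share was larger in D1 cells on both. Its overall mean, 9.41 TPM, was just under the minimum of 10 TPM used for ratios. Syt9, also named after its values were seen, was above 1 TPM in 6 D1 cells, up to 157 TPM, and in 0 of 38 D2 MSN (interval up to 9.25%); 37 of them listed it at 0 and the other at 0.15 TPM.

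Unc13a, the priming factor Munc13-1, was sparse and turned with the plate. Its means were 15.6 ± 21.1 TPM in D1 cells and 19.3 ± 40.7 TPM in D2 MSN, and its log2 ratio was 0.76 on plate FACS051_5 and -1.30 on plate FACS086_4. Unc13b was above 1 TPM in 0 D1 cells and 3 D2 MSN. Rims2 had means of 18.5 and 21.4 TPM. All 4 Rims and 3 Unc13 genes were listed, and 4 of these 7 had a mean of at least 10 TPM.

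Cplx2, the complexin found in most cells, had the higher mean in D1 cells on both plates. It ranged from 0 to 276 TPM in D1 cells (median 126) and from 0 to 200 TPM in D2 MSN (median 50.9). Means were 119 ± 87.0 and 62.3 ± 51.8 TPM, a log2 ratio of 0.93. The ratio was 0.91 on plate FACS051_5 and 0.78 on plate FACS086_4, the same direction on both, and lay between 0.88 and 1.01 when any single cell was left out. The groups overlapped throughout, and the ratio passed the 2-fold limit used below without the D2 MSN in C12 of plate FACS086_4 (1.01) or without that whole plate (1.06). The other abundant complexin, Cplx1, had similar medians of 11.3 and 12.8 TPM and opposite ratios on the 2 plates, -0.92 and 0.88.

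Proteins of the vesicle itself were also prominent. Rab3a, the vesicle GTPase that binds Rims, had means of 409 ± 303 and 474 ± 354 TPM and was found in 38 D1 cells and 37 D2 MSN. Rab3b behaved differently: it was at or under 1 TPM in most MSN, found in 16 D1 cells and 12 D2 MSN, yet reached 773 TPM in D1 cells and 463 TPM in D2 MSN. Its log2 ratio, 0.71, ranged from 0.31 to 1.11 with any single cell left out.

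Syp (synaptophysin), an abundant membrane protein of synaptic vesicles, had means of 127 ± 147 TPM in D1 cells and 105.9 ± 153 TPM in D2 MSN, medians of 107 and 56.8 TPM, and was found in 35 and 28 cells. Its log2 ratio was 0.26, with 0.01 on plate FACS051_5 and 0.40 on plate FACS086_4. Syngr3, a relative of synaptophysin, had means of 82.0 ± 109 and 74.0 ± 117 TPM and was found in 22 and 25 cells. The synapsins tether vesicles in the reserve pool: Syn2 had means of 69.8 ± 83.6 and 85.6 ± 114 TPM, and Syn1 had means of 55.2 ± 71.8 and 45.3 ± 75.9 TPM. Neither ratio reached 0.3 in size on the log2 scale.

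Differences of more than 2-fold between the populations were few. For each of the 47 members with a mean of at least 10 TPM, the log2 ratio of (mean TPM + 1) in D1 cells over D2 MSN was taken, a scale that understates the change of low genes. The ratio was above 1 for 2 members (4.26%), beside 12.4% of all genes at that level, and below -1 for 5 members (10.6%), beside 9.58% of all genes. The other 40 lay within 1 of 0. Both counts, 2 and 5, were the same without the cell in D04, and were 3 and 5 of 48 without the 4 libraries whose markers went against the label (all genes 12.2% and 10.2%). Over all genes 56.5% of ratios past 2-fold were higher in D1 cells, and 73.2% when log2 values were averaged over cells; with that average 3 members were above 1 and 1 below -1. The median over members was -0.09 (0.22 with averaged log2 values) and over all genes 0.01 (0.16), and the median size regardless of sign was 0.29 for members and 0.48 for all genes. The ratio had opposite signs on the 2 large plates for 25 of 47 members, compared with 49.4% of all genes. Past 2-fold on both plates with the higher mean in D1 cells was 1 member (all genes 4.48%). With the higher mean in D2 MSN on both there were 2 (all genes 3.79%). The minimum of 10 TPM applied to the mean over both populations pooled, so a gene could pass through 1 population alone. Vamp7, Snap23 and Stx3 had means under 10 TPM in D1 cells (7.39, 9.78 and 7.33 TPM). Stx18 had a mean of 7.04 TPM in D2 MSN. Stxbp2, Rims1 and Stx8 reached 10 TPM in both populations.

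The member higher in D1 cells on both plates was Stxbp2 (GRCm38 chromosome 8, 3630955 to 3643644), known best from secretion by blood cells. It ranged from 0 to 299 TPM in D1 cells (median 1.61) and from 0 to 213 TPM in D2 MSN (median 0). Means were 39.1 ± 87.1 and 11.7 ± 38.3 TPM, with log2 ratios of 1.66 over all cells, 2.01 on plate FACS051_5 and 1.30 on plate FACS086_4. Its share was 21 of 40 D1 cells and 14 of 38 D2 MSN. The shares were equal on plate FACS051_5, at 9 of 18 and 8 of 16, and were 11 of 21 and 5 of 19 on plate FACS086_4. With any single cell left out the ratio stayed between 1.40 and 2.47.

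Vamp7, a SNARE of late endosomes and lysosomes, was higher in D2 MSN. It was listed at 0 in 28 of 40 D1 cells, found in 6 (15%, interval 5.71% to 29.8%) and reached 194 TPM in the highest and 49.6 TPM in the next. In D2 MSN it was found in 15 of 38 (39.5%, interval 24.0% to 56.6%) and reached 219 TPM. Means were 7.39 ± 31.5 and 41.0 ± 64.9 TPM, with log2 ratios of -2.32 over all cells, -1.61 on plate FACS051_5 and -3.45 on plate FACS086_4. The ratio stayed between -3.54 and -2.15 with any single cell left out.

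Snap23 (GRCm38 chromosome 2, 120567671 to 120601255), the widely expressed relative of Snap25, was the second member higher in D2 MSN on both plates. Means were 9.78 ± 24.4 TPM in D1 cells and 43.8 ± 136 TPM in D2 MSN, but the shares hardly differed, at 13 of 40 and 14 of 38 cells, and both medians were 0. The highest D2 MSN, A12 of plate FACS086_9, listed 720 TPM and was among the 3 MSN with fewer than 2000 genes. By its marker sums it was also among the 4 libraries that went against the label, although it listed Drd1 at 0. Without it the log2 ratio moved from -2.06 to -1.30, and without all 4 it was -1.20. The ratio was -1.59 on plate FACS051_5 and on plate FACS086_4 just past the limit of -1.

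The other 4 members past 2-fold were each past it on only 1 of the 2 large plates. Rims1, a scaffold of the active zone, had means of 11.5 ± 23.6 and 33.0 ± 74.2 TPM and was found in 20 cells of each population. Its log2 ratio was -1.44, 0.39 on plate FACS051_5 and -2.28 on plate FACS086_4. Without the D2 MSN in well C04 of the latter plate, at 381 TPM, the ratio was -0.97.

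Stx18, a syntaxin of the endoplasmic reticulum, had a log2 ratio of 1.44, with 0.38 and 3.25 on the 2 plates. Its highest D1 cell, at 192 TPM, was the cell in D04 with astrocyte markers, without which the ratio was 1.11. Its highest D2 MSN listed 200 TPM and the next 9.13 TPM, and without the former the ratio was 2.95. Stx3 and Stx8, of the plasma membrane and of endosomes, had ratios of -1.09 each. Both had the same direction on plates FACS051_5 and FACS086_4, with -1.43 and -0.39 for Stx3 and -0.87 and -2.64 for Stx8. Leaving out the highest D2 MSN of each gave -0.72 and -0.78, and leaving out the highest D1 cell gave -1.41 and -1.77. When log2 values were averaged over cells in place of TPM, Stx3 turned to 0.15.

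**Figure D3:**
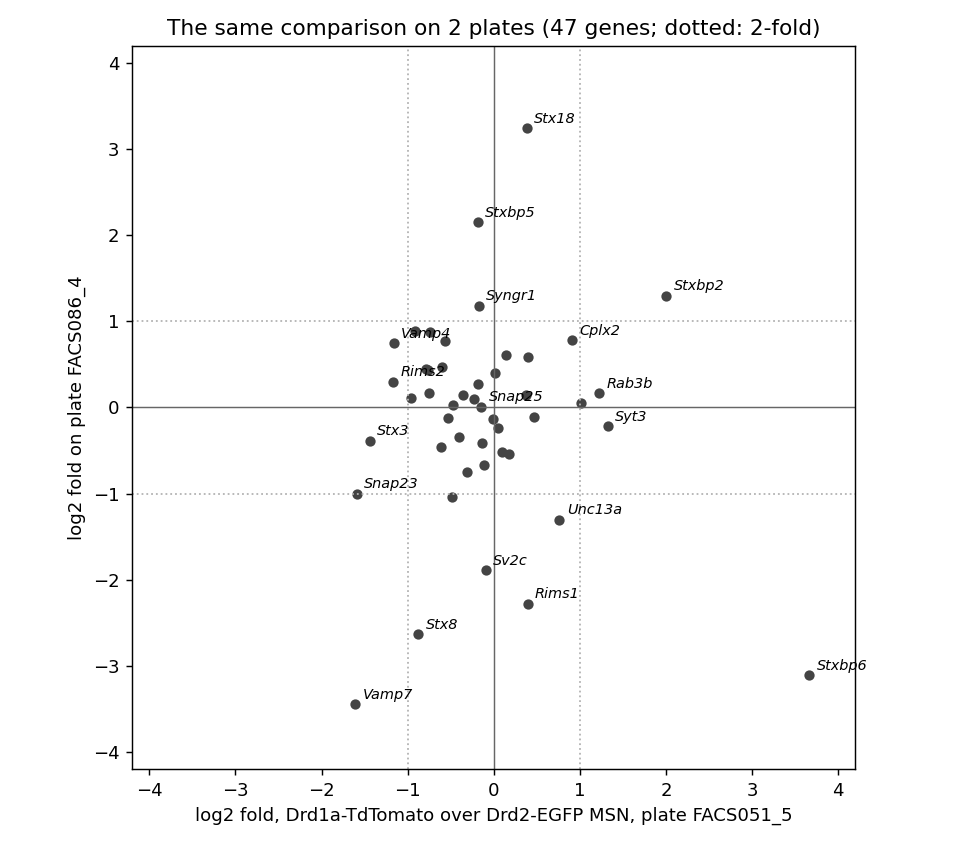
Log2 ratio of (mean TPM + 1) in Drd1a-TdTomato cells over Drd2-EGFP MSN on plate FACS051_5 (x axis) and on plate FACS086_4 (y axis) for the 47 members with a mean of at least 10 TPM; dotted lines mark 2-fold. Stxbp2 (2.01, 1.30) lies past 2-fold in the upper right, Vamp7 (-1.61, -3.45) and Snap23 (-1.59 and just past -1) in the lower left, and Stxbp6 (3.67, -3.11) has opposite ratios on the plates.

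With all plates pooled, shares of cells leaned to D1 cells more than levels did. A total of 36 members were found in at least 50% of D1 cells and 28 in at least 50% of D2 MSN, and 27 members did so in both. The share was larger in D1 cells for 54 of 71 members, larger in D2 MSN for 15 and equal for 2. For the 47 members at or above 10 TPM on average, the share was larger in D1 cells for 35 (74.5%), beside 64.6% of all genes at that level, in the cells that also had the higher median number of genes found. The part of that difference in gene number was not tested. By contrast, the mean was higher in D1 cells for 19 of the 47, and for 50.7% of all genes. The lean in shares was not common to both large plates. On plate FACS051_5 the median number of members found per cell was 35.5 in D1 cells and 38 in D2 MSN. On plate FACS086_4 it was 36 and 27.

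Over all 71 members the share was larger in D1 cells for 76.1%, beside 54.7% of all listed genes. These sets differ in level, since 47 of 71 members but only 7642 of 25160 listed genes had a mean of at least 10 TPM. At that level the values were the closer 74.5% and 64.6% given above. By class, with all plates pooled, this was so for 14 of 16 synaptotagmins, 11 of 14 syntaxins and 5 of 6 Stxbp proteins. Vamp proteins divided evenly, with 3 in each direction and 1 equal. Syntaxins had the lowest class median of the log2 ratios, -0.56 over 9 members with enough level, and complexins the highest, 0.42 over 2.

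**Figure D4:**
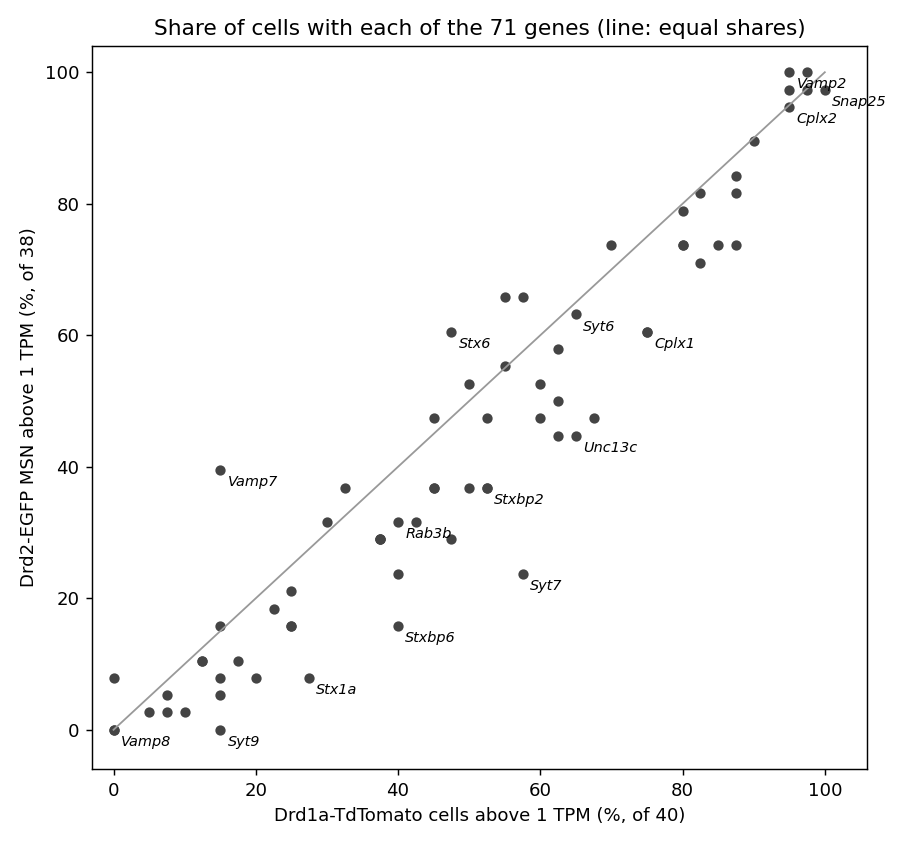
Share of Drd2-EGFP MSN (y axis, of 38) against the share of Drd1a-TdTomato cells (x axis, of 40) with each of the 71 members above 1 TPM; the line marks equal shares. With all plates pooled, more members lie below the line (54) than above it (15). Syt7 (57.5% and 23.7%) and Stx1a (27.5% and 7.89%) lie below and Vamp7 (15% and 39.5%) above. On plate FACS051_5 alone Stx1a was found in 4 of 18 D1 cells and 3 of 16 D2 MSN.

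Related genes were often found together in a cell, and in several pairs 1 gene was found in nearly all cells. Vamp2 was found in 76 of 78 MSN, Rab3a in 75 and Cplx2 in 74. Most cells with the partner would therefore hold these genes in any case, and overlap beyond the single shares was not tested. Cplx1 and Cplx2 were both above 1 TPM in 52 of 78 MSN, Cplx2 without Cplx1 in 22, and Cplx1 without Cplx2 in 1. Vamp2 was present without Vamp1 in 38 MSN and together with it in 38, whereas Vamp1 was alone in 1. All 60 MSN with Rab3c also had Rab3a.

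Other pairs were less one-sided. Syn1 and Syn2 were both found in 46 MSN, Syn1 alone in 7 and Syn2 alone in 18. Sv2a and Sv2b, vesicle glycoproteins, were both found in 38 MSN, Sv2a alone in 22 and Sv2b alone in 6. Rims1 and Rims2 were both found in 26 MSN, with Rims1 alone in 14, Rims2 alone in 18 and neither in 20.

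The 2 cholinergic interneurons, both from plate FACS051_5, lay at or above the top of the MSN range. They had 52 and 53 members above 1 TPM (at most 52 in an MSN), in cells with 10251 and 10912 genes found, and members took 1.26% and 1.27% of their listed TPM against at most 1.02% in an MSN. In both cells 3 members were above the highest of the 78 MSN, beside 1.09% of all listed genes; 2 of the 3 were among the 47 members at or above 10 TPM on average, beside 0.563% of all genes at that level. Snap25 was at 3369 and 3727 TPM (highest MSN 3129), and Syt1 at 1140 and 1009 TPM (highest MSN 650). Syt13, an atypical synaptotagmin, was at 154 and 121 TPM, whereas its highest MSN listed 48.9 TPM and its median over MSN was 0. With 2 cells there was no measure of spread. When TPM were rescaled after leaving out the 1% of genes with the highest means, Syt13 was the only member still above all MSN; Syt1 was at 1675 in the lower interneuron against 1689 in the highest MSN, and Snap25 at 5626 against 7743.

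Further members were near the top of the MSN range in both interneurons. Rab3b, at 727 and 885 TPM, was above 77 of 78 MSN, Vamp2, at 694 and 646 TPM, above 77, and Sv2a, at 273 and 193 TPM, above 76. Sv2c, at 144 and 98.2 TPM, was above 75. Other members were missing: of 33 members found in at least 50% of MSN, 2 (6.06%, beside 3.94% of all such genes) were at or under 1 TPM in both interneurons. Syt6 was listed at 0 in both but found in 50 of 78 MSN, and Sv2b was at 0.61 and 0.55 TPM but found in 44. Cplx2 lay within the MSN range, at 42.8 and 38.0 TPM.

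**Figure D5:**
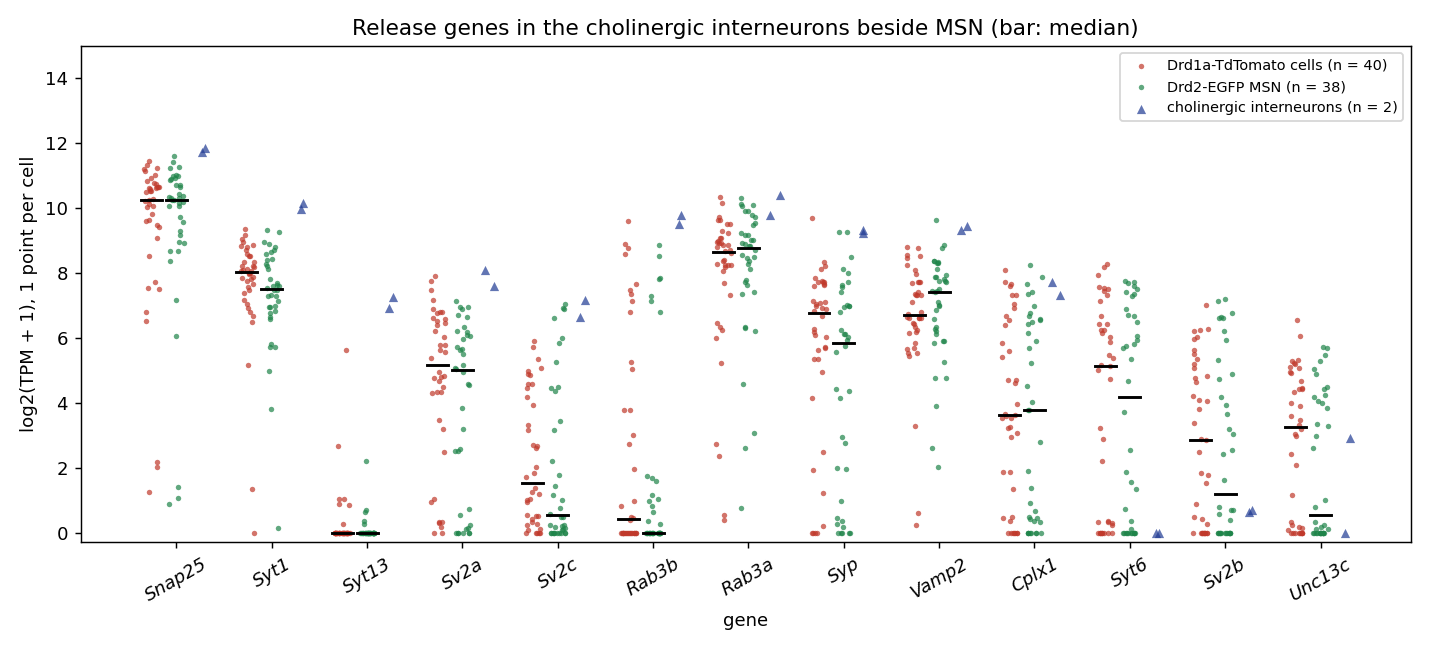
Levels of 13 members as log2(TPM + 1) (y axis), 1 point per cell, in 40 Drd1a-TdTomato cells, 38 Drd2-EGFP MSN and the 2 cholinergic interneurons; black bars are the medians of the MSN groups. Snap25, Syt1 and Syt13 lie above all MSN in both interneurons, and Syt6 is listed at 0 in both.

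Genes of the vesicle cycle were set beside the members in 5 lists, which held 1 member, Sv2c, in the list of transmitter loading. Counting only genes whose mean reached 10 TPM, ratios past 2-fold were seen for 1 of 11 in SNARE priming and recycling (higher in D1 cells), 2 of 11 in the active zone (1 in each direction), 0 of 2 in transmitter loading, 2 of 18 in vesicle retrieval (both higher in D2 MSN) and 3 of 10 other SNAREs (all higher in D1 cells), beside 12.4% of all genes higher in D1 cells and 9.58% higher in D2 MSN. Of the 3 SNAREs, Gosr1 and Bet1l had opposite signs on the 2 plates. Rph3a, a Rab3 effector, was found in 28 D1 cells and 11 D2 MSN, with means of 31.8 and 8.48 TPM and log2 ratios of 1.70 and 1.44 on the 2 plates. Erc1, an active-zone scaffold, had a log2 ratio of 2.84 and was found in 28 D1 cells and 17 D2 MSN. The retrieval genes were Amph and Bin1, both amphiphysins, with log2 ratios of -1.15 and -1.37. Vti1a, a SNARE of the Golgi and endosomes, had a ratio of 2.32, past 2-fold on both plates, and was found in 13 and 3 cells. Slc32a1, the vesicular GABA transporter, was low in both populations, with means of 7.23 and 7.10 TPM, and was listed at 0 in both interneurons.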

How the data were processed

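Single cells were sorted into plates, amplified with a SMARTer v3 kit, which does not mark strand, and sequenced. Per the paper's methods, the authors aligned reads with STAR 2.5.0 to mm10/GRCm38 (annotation GRCm38.75 with added reporter sequences) and counted them with featureCounts 1.5.1. The authors deposited TPM per gene and cell, and how these were made is not given in the sources used here. TPM keep no depth, and rescaling within a cell ties all genes to the most abundant ones.

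From the deposited TPM, a Python 3.11.15 script (numpy 2.4.6, pandas 2.3.3, scipy 1.17.1, matplotlib 3.10.9) took the mean, median, range and SD per member and group, and log2((mean TPM in D1 cells + 1)/(mean TPM in D2 MSN + 1)) for members whose mean over all 78 MSN reached 10 TPM. The fold calculation was checked on the deposited TPM with cells in random groups and a known multiple put into some genes. That check covers the arithmetic only. Groups came from the labels' marker gene, and 2 cells with Chat above 100 TPM were kept apart. Because each group is 1 sample, no count model or test was used. Named with values were the 2 most abundant members of each class, textbook release genes (some items are not reported here), members past 2-fold on both large plates and the 5 largest ratios in each direction; others are named as seen after their values. The members and lists were chosen with earlier results of these data known. A total of 14 alternatives were planned and 3 were added after the data were seen. Exon overlaps come from GENCODE M21 (GRCm38), where 70 of 71 members were matched. The reporters' own expression, flow cytometry and reads were not analysed here.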

Additional observations from a re-analysis of the deposited data

Results flagged for a closer look

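Levels in the 2 cholinergic interneurons, which enter no comparison of D1 cells with D2 MSN, lay above those of all 78 MSN for 3 members. The lower of both interneurons listed Snap25 at 3369 TPM, Syt1 at 1009 TPM and Syt13 at 121 TPM. The number of genes found was also higher in these cells, at 10251 and 10912 against at most 8657 in an MSN, and its part in these levels was not tested.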

How the results depend on the processing

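Stxbp2 was past 2-fold with the higher mean in D1 cells, and Vamp7 in D2 MSN, under all 15 alternatives run for these counts. The count higher in D1 cells, 2 of 47 (all genes 12.4%), became 1 with a pseudocount of 10 TPM (6.70%), 9 of 60 with TPM rescaled without the top 1% of genes (20.3%), 5 of 45 without plate FACS051_5 (20.2%), 4 of 46 without plate FACS086_4 (18.5%), 10 of 66 with a minimum mean of 1 TPM (21.1%) and 11 of 71 with no minimum (14.7%). The count higher in D2 MSN, 5 (9.58%), became 2 with a pseudocount of 10 TPM (4.88%), 1 with the difference of mean log2(TPM + 1) (3.08%) and 2 of 45 without the highest cell of each gene (6.62%, added after the data were seen). With mean log2 values the median ratio moved from -0.09 to 0.22 (all genes 0.16), Stx3 turned to 0.15, and 73.2% of calls over all genes were higher in D1 cells, against 56.5%. Above 10 TPM, 20 members were found in at least 50% of D1 cells and the median number of MSN with both genes of a pair fell to 22.5 from 38. Of 377 ratios of single named genes under alternatives, 335 moved by less than the spread between the 2 large plates, and 45, of 17 genes, changed sign; all but that of Stx3 were within 2-fold in the main values. The causes were not tested. Leaving out the cell in D04 or all 4 libraries whose markers went against the label was added after the data were seen. No paired analysis was possible because no result comes from a test; ratios within plates are given in its place. Depth is unknown, cells per plate are few, and plates cannot be tied to animals.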

Other observations

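In the 2 cholinergic interneurons, further genes of the vesicle cycle lay outside the MSN range. Slc17a8, a vesicular glutamate transporter, was at 168 and 247 TPM, with at most 4.21 TPM in an MSN. Slc18a3, the vesicular acetylcholine transporter, was at 293 and 421 TPM. Sncb, a synuclein, was at 210 and 364 TPM, with at most 104 TPM in an MSN.

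Stxbp6, a syntaxin-binding protein also called amisyn, had log2 ratios of 3.67 on plate FACS051_5 and -3.11 on plate FACS086_4. Its highest cell was a D2 MSN at 559 TPM, and it was above 1 TPM in 16 D1 cells and 6 D2 MSN.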
